A study of Homo sapiens with 6 samples.

Results

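The clustered histone genes are the genes of the replication-dependent histones H1, H2A, H2B, H3 and H4, which lie together in the HIST1, HIST2, HIST3 and HIST4 clusters of the human genome. They were taken from the table of A549 RNA-Seq counts by their symbol. Of 23180 gene symbols with counts, 73 named a clustered histone gene. The 41 genes with at least 10 counts summed over the 6 samples are described here as the members, 32 symbols lay below that minimum, and 8 of these had 0 counts in every sample. The members comprise 3 H1, 10 H2A, 13 H2B, 7 H3 and 8 H4 genes, of which 32 belong to HIST1, 6 to HIST2, 2 to HIST3 and 1 to HIST4.

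A549 is an established line of human lung adenocarcinoma cells. At passage 11, cells received either siControl (n = 3) or an siRNA against KMT9α (n = 3, siKMT9α#1 by the study's methods, at a final concentration of 65 nM), and RNA was sequenced 3 days later. Both groups thus carried a transfected siRNA and differed in its target. KMT9α is the catalytic subunit of KMT9, an enzyme that places a single methyl group on lysine 12 of histone H4. The labels call the samples of a group biological replicates without naming separate cultures, so p-values measure the spread between these samples, which may be technical. As 1 siRNA against KMT9α was sequenced, effects of its sequence and of the loss of its target cannot be told apart.

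Replication-dependent histone mRNAs supply the proteins that package newly copied DNA, and their levels rise in S phase and fall when DNA synthesis stops. They are the mRNAs of animal cells that as a rule end not in a poly(A) tail but in a short stem-loop, which the stem-loop binding protein SLBP holds through processing, translation and decay. Some clustered histone genes also give spliced or extended transcripts with a poly(A) tail, a form known from cells that have left the cell cycle.

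The sequences below are the stem-loops of genes on which the results turn, read from the GRCh37 genome on the strand of the gene, 5′ to 3′. The 16 bases of the stem and loop are in capitals, and 5 flanking bases on each side are in lower case.
HIST1H1C: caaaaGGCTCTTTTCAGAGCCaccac
HIST1H2AC: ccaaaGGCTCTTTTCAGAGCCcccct
HIST3H2A: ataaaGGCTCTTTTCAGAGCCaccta
HIST2H2BE: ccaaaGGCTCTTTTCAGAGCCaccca
HIST1H2BN: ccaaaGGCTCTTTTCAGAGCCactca
HIST1H2BC: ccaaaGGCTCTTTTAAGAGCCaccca
HIST1H2BD: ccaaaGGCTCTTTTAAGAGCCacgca
HIST1H2BJ: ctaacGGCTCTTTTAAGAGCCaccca
HIST1H2BK: ccaaaGGCTCTTTTAAGAGCCactta
HIST1H4C: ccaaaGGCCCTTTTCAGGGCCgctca
HIST1H4H: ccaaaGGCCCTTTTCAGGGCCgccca

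The histone stem-loop was found in all 67 symbols with an annotated strand, which include 40 of the 41 members, and it had 11 spellings. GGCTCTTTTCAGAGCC was carried by 38 genes, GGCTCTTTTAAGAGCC by 9 genes and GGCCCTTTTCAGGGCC by 9 genes. In HIST1H3D, which is not a member and overlaps HIST1H2AD, 2 stem-loops were found. The one counted is that of HIST1H2AD, so it stands for both symbols among the 38. Of the 40 members, 35 had a deposited transcript that ended 3 to 11 bases after the stem-loop. The deposited transcripts of the other 5 ran further. That of HIST2H2BE went on for 1728 bases, that of HIST2H2BF for 508, that of HIST1H2BK for 344, that of HIST1H2BD for 329 and that of HIST2H2BC, a non-coding entry, for 110. The polyadenylation signal AATAAA stood in the last 40 bases of HIST2H2BE, HIST1H2BD and HIST1H2BK, and in none of the 35 that ended at the stem-loop.

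As a check of the labels, N6AMT1, which encodes KMT9α, was at 10.8 ± 0.62 CPM (counts scaled to the depth of a sample, mean ± SD of 3 samples) in siControl and at 3.15 ± 0.25 CPM in siKMT9α#1 cells. It fell by 1.77 on the log2 scale (standard error 0.12). The totals with 1 transcript per symbol were 15551778 to 18568639.5 counts with siControl and 13740097 to 19832395.5 with siKMT9α#1, so that 1 count was worth 0.0520 to 0.0756 CPM. The keratins KRT8 and KRT18, defining markers of epithelial cells, had means of 527.8 to 2041 CPM in both groups, whereas SFTPC and SFTPB, surfactant genes of alveolar type 2 cells, were at or near 0. Of the epithelial list, KRT8, KRT18, KRT19 and EPCAM fell and CDH1 rose. Means are given next for siControl and then siKMT9α#1. Of 7 alveolar type 2 markers 2 were tested, ABCA3 (rose, 41.2 and 69.1 CPM) and LAMP3 (fell, 4.21 and 2.73 CPM). Of 6 fibroblast markers 3 were tested. COL1A1 (4.27 and 2.80 CPM) and LUM (3.14 and 0.27 CPM) fell, and PDGFRA (0.87 and 0.85 CPM) had a log2 fold change of 0.01. Of 6 immune and endothelial markers only CD68 was tested (fell, 80.6 and 27.9 CPM). PTPRC and CD3E, which define immune cells, and COL1A2, which defines fibroblasts, had means of 0 to 0.0471 CPM. The part of these differences in the histone results was not tested.

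All 73 symbols held 0.0340 to 0.0373% of the counts of a siControl sample and 0.0229 to 0.0265% of those of a siKMT9α#1 sample. Summed over the 41 members, the level was 328.4, 357.0 and 349.9 CPM with siControl and 268.6, 273.7 and 236.3 CPM with siKMT9α#1. The groups did not overlap, and the mean with siControl was 1.33 times that with siKMT9α#1. Replicate 1 of siControl and replicate 3 of siKMT9α#1 stood apart from their groups, as their chi-square against the other replicates was 4.01 to 5.25 per gene, while those replicates gave 1.36 to 1.81 among themselves. Between groups it was 107 to 140. Without both libraries the ratio of the histone sums was 1.30, and without either of them 1.27 to 1.36, again with no overlap. A few genes carried the sum. HIST1H1C and HIST1H2BK contributed 37.3% and 36.6% of all histone counts with siControl and 21.2% and 53.2% with siKMT9α#1. Over all samples they and HIST1H2BD, HIST2H2BE and HIST1H2AC reached 90.0%. In these bulk samples, fewer cells that make histone mRNA and less of it per cell cannot be told apart. Of the 43 genes of the Seurat S phase list, all tested, 33 rose and 3 fell in the same comparison, with a median log2 fold change of 0.67. Of all genes tested, 37.1% rose and 38.5% fell.

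By type, the sums went different ways. The H1 members had 129.9 ± 9.95 CPM with siControl and 56.7 ± 7.83 CPM with siKMT9α#1 (SD, n = 3 each), and the H2A members 32.7 ± 2.70 and 15.1 ± 0.69 CPM, in both cases without overlap. The H2B members, at 173.8 ± 2.67 and 176.5 ± 11.2 CPM, and the H3 members, at 3.48 ± 0.68 and 3.41 ± 0.25 CPM, overlapped between groups. The H4 members lay higher with siKMT9α#1 in every sample, at 7.78 ± 0.69 against 5.24 ± 0.21 CPM. This sum includes HIST1H4C, HIST1H4A, HIST1H4D and HIST1H4I, which reached the minimum of 10 counts only through the siKMT9α#1 samples. The difference is therefore a description. HIST1H4H and HIST1H4E together had 4.57 ± 0.12 CPM with siControl and 4.56 ± 0.48 CPM with siKMT9α#1.

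**Figure D1:**
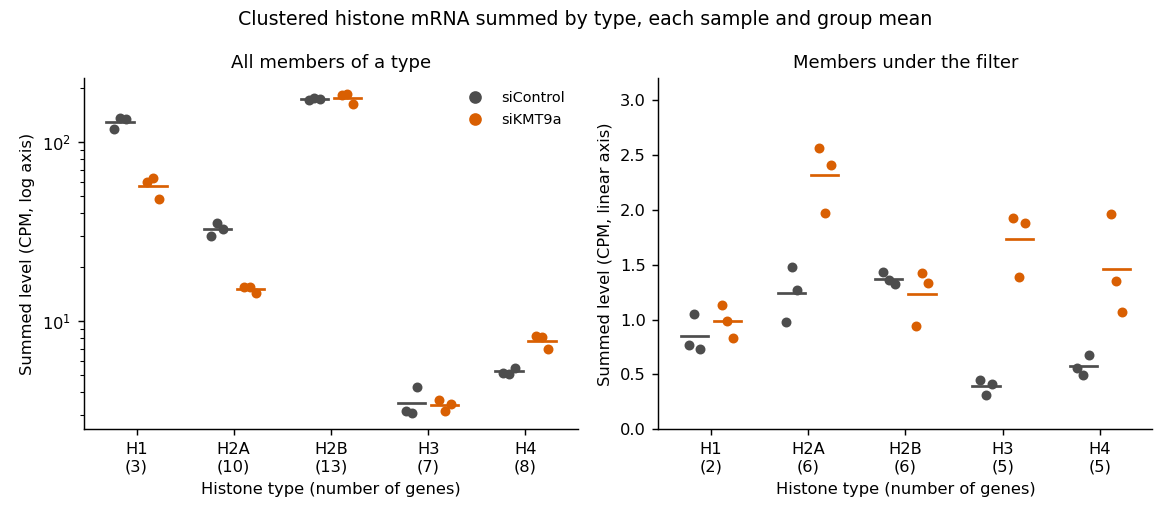
Summed levels (CPM) of the clustered histone members by type, with the number of genes below each type. Points are samples and lines are group means, on a log axis for all members (left) and a linear axis for members under the filter on low counts (right). With siKMT9α#1 the H1 and H2A sums lay below those with siControl, while the H2A, H3 and H4 genes under the filter lay above. Of the 12 genes under the filter that were higher in every siKMT9α#1 sample, 10 reached the minimum of 10 counts only through those samples.

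edgeR's filter on low counts kept 17 of the 41 members among the 13877 genes tested. Of these, 4 were higher after knock-down, 7 were lower and 6 were not called, taking an edgeR quasi-likelihood F test with its p-values adjusted (Benjamini-Hochberg) across all genes tested and a limit of 0.05. The background of this comparison was high: 75.6% of all genes tested were called, 37.1% higher and 38.5% lower. Of the tested members, 64.7% were called, 23.5% higher and 41.2% lower, so that the share called in either direction was below that of all genes and the share lower was close to it. At the threshold of the study (P under 1e-08 and a log2 fold change beyond 0.26 in size), which 24.2% of all genes passed, HIST1H1C, HIST1H2AC and HIST2H2BE were lower and HIST1H4C was higher. The median log2 fold change was -0.56 over the 17 tested members and -0.01 over all genes tested, but it was 0.32 over all 41 members when no filter was used. The groups of 8 tested members did not overlap, 3 of them above the controls and 5 below, against 77.0% of all genes tested, with 37.6% above and 39.4% below. All 6 samples of 12 tested members lay above the filter's cutoff of 0.592 CPM, whereas HIST1H4C exceeded it in no siControl sample and in all 3 siKMT9α#1 samples, so that it could enter the test only by being higher and its place among the 4 rests on that. The plot of levels by sample shows the tested members.

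**Figure D2:**
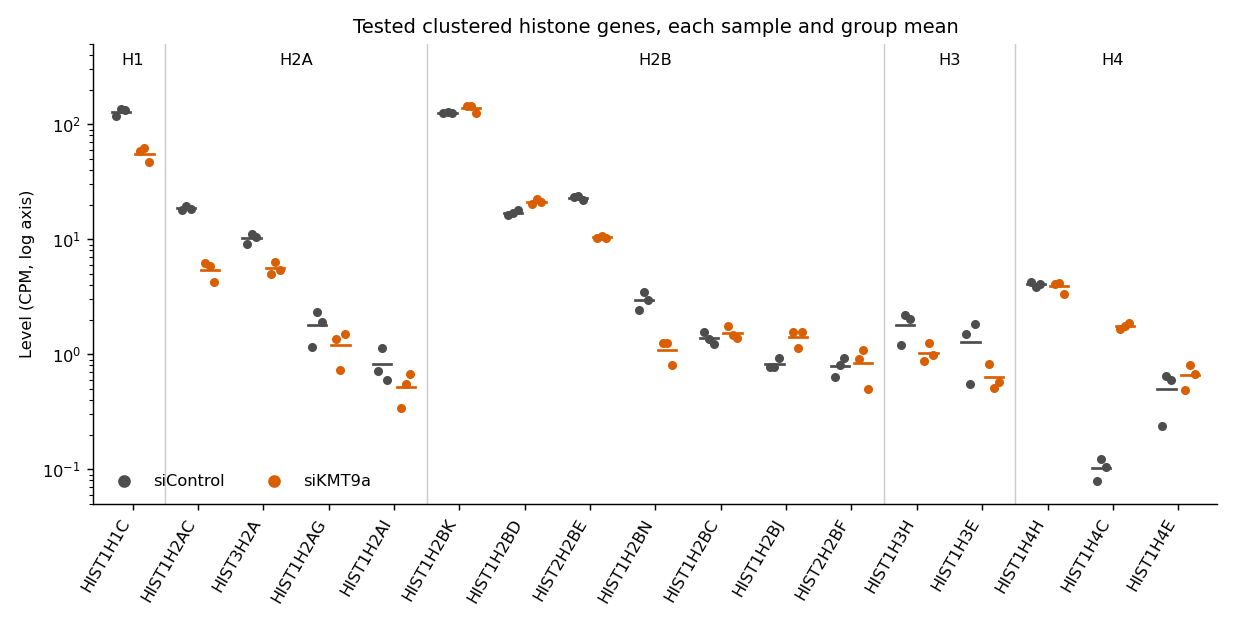
Levels (CPM, log axis) of the 17 tested clustered histone genes, by histone type and mean level. Points are samples and lines are group means. HIST1H1C, HIST1H2AC, HIST3H2A, HIST2H2BE and HIST1H2BN lay lower in every siKMT9α#1 sample than in any siControl sample.

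Linker histone H1 binds DNA where it enters and leaves the nucleosome. HIST1H1C, which encodes H1.2 and lies on chromosome 6 of hg19 from 26055968 to 26056699, had 117.7, 135.6 and 133.8 CPM with siControl and 58.2, 62.0 and 47.1 CPM with siKMT9α#1. Every knock-down sample lay below every control sample. On the log2 scale it fell by 1.22 (standard error 0.08, adjusted p = 3.51e-11, edgeR quasi-likelihood F test, Benjamini-Hochberg), a level 2.33 times lower, and with offsets for GC content and length it was -0.95.

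The other H1 members had few counts and did not pass the filter. HIST1H1D, which encodes H1.3, had 9.5, 10 and 11 counts with siControl and 4, 2 and 5 counts with siKMT9α#1. HIST1H1E, which encodes H1.4, had 5, 7 and 3 counts with siControl and 11, 11.5 and 11 with siKMT9α#1. The groups of both genes were apart, in opposite directions: the ratio of the group levels, siKMT9α#1 over siControl, was 0.43 (95% exact interval 0.20 to 0.89) for HIST1H1D and 2.67 (1.42 to 5.28) for HIST1H1E. Such intervals, here and below, cover counting error only.

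H2A and H2B form the dimers that flank the H3-H4 tetramer of the nucleosome. Among the H2A genes, HIST1H2AC, on chromosome 6 from 26124373 to 26124918, had 17.9, 19.4 and 18.5 CPM with siControl and 6.197, 5.883 and 4.263 CPM with siKMT9α#1. Its groups did not overlap, and it fell by 1.80 on the log2 scale (standard error 0.11, adjusted p = 3.29e-11, edgeR quasi-likelihood F test, Benjamini-Hochberg), the largest fall among the tested members. HIST3H2A, the H2A gene of the HIST3 cluster on chromosome 1 from 228645065 to 228645560, had 9.13, 11.0 and 10.6 CPM with siControl and 5.03, 6.32 and 5.44 CPM with siKMT9α#1. It too was lower in each knock-down sample, with a log2 fold change of -0.87 (standard error 0.12).

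The remaining tested H2A genes, both in HIST1, were not called. Both were lower on average, with groups that overlapped. HIST1H2AG, at 1.81 ± 0.60 and 1.19 ± 0.41 CPM (SD, n = 3 each), had a log2 fold change of -0.56 (standard error 0.28), and HIST1H2AI, at 0.82 ± 0.29 and 0.52 ± 0.17 CPM, one of -0.58 (standard error 0.35). Leaving out a sample moved HIST1H2AG between -0.78 and -0.33, and it was called lower without siControl replicate 1 (-0.78), without siKMT9α#1 replicate 3 (-0.78) and with library size alone (-0.66).

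H2B was the type with most tested members and went both ways. HIST1H2BK was, per kilobase, second to HIST1H1C with siControl (151.2 against 176.5 CPM per kb) and the most abundant member with siKMT9α#1 (165.9 against 76.3 CPM per kb). It had 125.2, 128.4 and 125.5 CPM with siControl and 144.8, 144.8 and 126.6 CPM with siKMT9α#1. The lowest knock-down sample lay within the control range. The log2 fold change amounted to 0.13 (standard error 0.05, adjusted p = 0.0341, edgeR quasi-likelihood F test, Benjamini-Hochberg), 0.03 when only the library size was used for scaling, a difference that was not called, 0.36 with offsets for length and 0.42 with offsets for GC content and length. Without siControl replicate 3, siKMT9α#1 replicate 1 or siKMT9α#1 replicate 2 the call was lost, and without siKMT9α#1 replicate 3 the value was 0.20. Its minus-strand span on chromosome 6, 27106072 to 27114637, overlaps that of HIST1H4I on the plus strand, and whether the counting used the strand is not stated.

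HIST1H2BD had 16.41, 17.01 and 17.86 CPM with siControl and 20.3, 22.3 and 21.2 CPM with siKMT9α#1. All knock-down samples were above all control samples. The log2 fold change was 0.31 (standard error 0.08) for the spliced transcript of 810 bases, and it was 0.21, not called, when the gene was represented by its shortest transcript of 486 bases. It was also 0.21 with library size alone and 0.54 with length offsets, both called. HIST1H2BJ, whose span on chromosome 6 is 27100095 to 27100575, was at 0.77, 0.77 and 0.94 CPM with siControl and at 1.55, 1.13 and 1.57 CPM with siKMT9α#1, and rose by 0.82 on the log2 scale (standard error 0.25). Its groups did not overlap, but its call was lost with DESeq2, whose adjusted p was 0.0524.

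HIST2H2BE, which carries the longest extension past the stem-loop, had 23.2, 23.6 and 22.1 CPM with siControl and 10.4, 10.6 and 10.3 CPM with siKMT9α#1. The replicates of each group lay close together and far from the other group. It lies on chromosome 1 from 149856010 to 149858232 and fell by 1.14 on the log2 scale (standard error 0.08, adjusted p = 1.80e-10, edgeR quasi-likelihood F test, Benjamini-Hochberg). HIST1H2BN had 2.42, 3.49 and 2.96 CPM with siControl and 1.25, 1.24 and 0.81 CPM with siKMT9α#1, with a log2 fold change of -1.45 (standard error 0.23) and groups that did not overlap.

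HIST1H2BC and HIST2H2BF were not called. HIST1H2BC had 1.38 ± 0.17 and 1.54 ± 0.21 CPM (SD, n = 3 each) and a log2 fold change of 0.12 (standard error 0.23). HIST2H2BF, whose span overlaps that of FCGR1A, had 0.79 ± 0.15 and 0.83 ± 0.31 CPM and a log2 fold change of 0.02 (standard error 0.32).

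H3 and H4 form the tetramer at the core of the nucleosome. The tested H3 genes were both lower, with wide spreads and overlapping groups. HIST1H3E had 1.49, 0.56 and 1.82 CPM with siControl and 0.83, 0.51 and 0.58 CPM with siKMT9α#1, and a log2 fold change of -1.06 (standard error 0.37). HIST1H3H went from 1.81 ± 0.53 to 1.03 ± 0.19 CPM (SD, n = 3 each), with a log2 fold change of -0.77 (standard error 0.27). The call for HIST1H3E was lost without siControl replicate 3, at a log2 fold change of -0.72, and without siKMT9α#1 replicate 2, at -0.95. That for HIST1H3H was lost without siControl replicate 2, at -0.61, and without siControl replicate 3, at -0.66, and also with DESeq2, at -0.77, and with length offsets, at -0.57.

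Among the H4 genes, which encode the protein that KMT9 methylates, HIST1H4H was the most abundant per kilobase and differed least, with 4.07 ± 0.23 CPM with siControl, 3.898 ± 0.456 CPM with siKMT9α#1 (SD, n = 3 each) and a log2 fold change of -0.09 (standard error 0.15). HIST1H4E, at 0.50 ± 0.22 and 0.66 ± 0.16 CPM, had a log2 fold change of 0.44 (standard error 0.39) and was not called. HIST1H4C, on chromosome 6 from 26104176 to 26104565, stood apart from them, with 1.5, 2 and 2 counts in the siControl samples and 22, 24 and 35.5 counts in the siKMT9α#1 samples. The groups were far apart. The ratio of the group levels was 16.1 (95% exact interval 7.09 to 45.2), and the fit gave 3.92 on the log2 scale (standard error 0.35). As the gene passed the filter only through the group where it was high, these values are a description. The H4 sum without HIST1H4C, over the other tested H4 genes, was 4.57 ± 0.12 CPM with siControl and 4.56 ± 0.48 CPM with siKMT9α#1. Since H4 genes encode the same protein from similar sequences, reads could be shared between copies, and how the counting treated such reads is not stated.

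**Figure D3:**
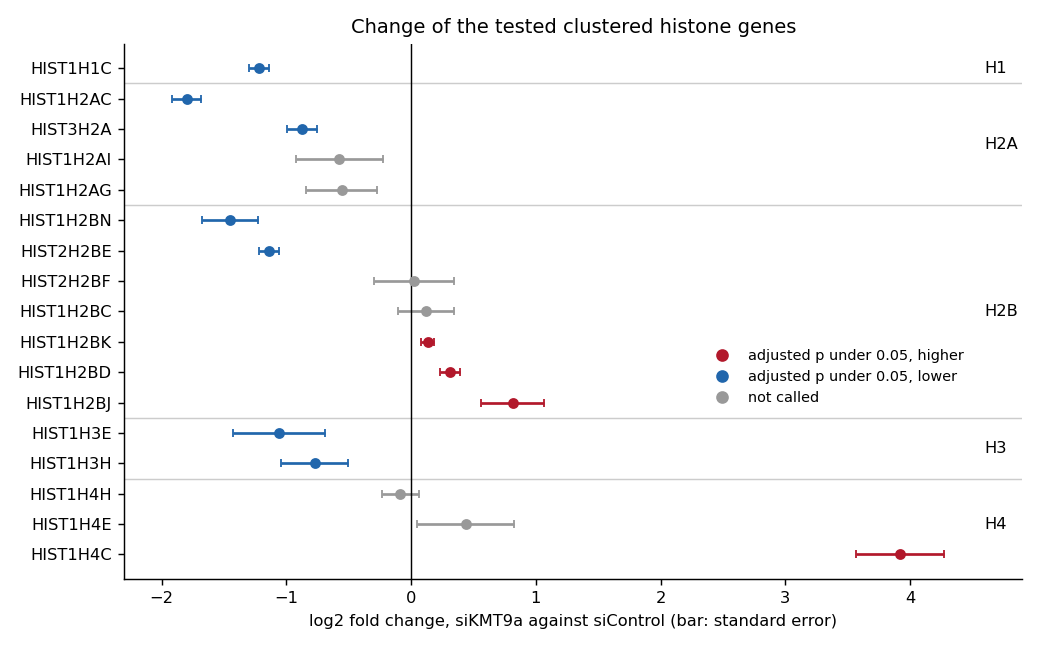
log2 fold changes, siKMT9α#1 against siControl, of the 17 tested clustered histone genes by type, with standard errors as bars and the call at an adjusted p under 0.05 as colour. HIST1H4C lay at 3.92, and the other 16 genes lay between -1.80 and 0.82.

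The 24 members under the filter had at most 14 counts in any sample, and the direction of their sum was the reverse of that of the tested members. Their counts summed to 79, 76 and 85 with siControl and to 113, 97.5 and 144 with siKMT9α#1, which is 4.44 ± 0.25 against 7.73 ± 0.73 CPM (SD, n = 3 each). Every knock-down sum lay above every control sum. The 17 tested members summed to 340.7 ± 14.7 and 251.8 ± 20.2 CPM. As the filter removes genes by their level, the tested members are those with the higher levels.

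Of the 24, 12 were higher in every siKMT9α#1 sample than in any siControl sample, 3 were lower in every sample and 9 overlapped. Among all 2023 genes with at least 10 counts that did not pass the filter, 17.4% were higher in every sample and 21.9% lower. With every gene of at least 10 counts tested, the same quasi-likelihood test called 12 of the 24 as higher and 2 as lower with the same limit on the adjusted p, against 13.8% higher and 17.2% lower among those 2023 genes. The difference between these shares was not tested. Of the 12 that were higher in every sample, 10 had under 10 counts summed over the siControl samples, 7 of them under 3, so that they reached the minimum of 10 counts only through the siKMT9α#1 samples. In the same way, 2 of the 3 that were lower reached it only through the siControl samples. The directions, sums, calls, ratios and intervals of genes that reached the minimum through 1 group, here and below, are therefore a description. The same holds for the sum of the 24 members, which includes such genes. Over all 41 members that fit called 16 higher and 9 lower, against 34.6% and 34.9% of its 15900 genes.

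By type, all 5 of the H3 genes under the filter were higher in every siKMT9α#1 sample, and their summed level was 0.39 ± 0.07 CPM with siControl and 1.73 ± 0.30 CPM with siKMT9α#1 (SD, n = 3 each). Among all genes under the filter, 17.4% were higher in every sample. Each of the 5 reached the minimum of 10 counts only through the siKMT9α#1 samples. Their shared direction and their sum are therefore a description. HIST1H3A had 0, 0 and 0 counts with siControl and 2, 3.5 and 7.5 counts with siKMT9α#1, which is at least 5.11-fold higher when the control group is set to 3 counts, and the 95% exact interval of the ratio, which also counts the error of the knock-down group, starts at 3.59. HIST1H3C had 0, 0 and 0.5 counts with siControl and 4, 3.5 and 4 with siKMT9α#1. The others were HIST1H3B, HIST1H3J and HIST2H3D, the H3 gene of HIST2, whose ratio of group levels was 2.88 (95% exact interval 1.28 to 7.11).

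The 5 H4 genes under the filter summed to 0.58 ± 0.09 CPM with siControl and 1.46 ± 0.46 CPM with siKMT9α#1, without overlap. HIST1H4D had 0, 1 and 0 counts with siControl and 9.5, 6 and 2 with siKMT9α#1, and HIST1H4A 0, 0 and 1 against 5.5, 3 and 2.5. Both reached the minimum only through the knock-down samples, so these values and the sum are a description. HIST4H4, which lies alone on chromosome 12, showed no such difference, with 5, 5 and 7 counts against 5, 4 and 6.5 and overlapping groups. HIST1H4I, which overlaps HIST1H2BK, and HIST1H4B also overlapped between groups.

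Of the 6 H2A genes under the filter, HIST2H2AB, HIST2H2AC and HIST1H2AH were higher in every knock-down sample and HIST1H2AJ, HIST1H2AK and HIST1H2AM overlapped. HIST2H2AB had 1, 1 and 0 counts with siControl and 6, 5 and 5 with siKMT9α#1, a ratio of group levels of 9.43 (95% exact interval 2.22 to 84.5). As HIST2H2AB and HIST1H2AH reached the minimum only through the knock-down samples, their direction and this ratio are a description. The 6 H2B genes under the filter were mixed. HIST1H2BO was higher in every knock-down sample after scaling to depth, at 2.5, 0 and 5.5 counts against 5, 6 and 7.5. HIST1H2BF had 4.5, 5.5 and 3 counts with siControl and 0, 1 and 0 with siKMT9α#1, the lowest ratio of group levels among the 24 (0.09, 95% exact interval 0.0021 to 0.60). HIST1H2BE was also lower in every sample, but only after scaling to depth, at 3.5, 4 and 4 counts against 0, 2.5 and 3.5. Its ratio was 0.59 (95% exact interval 0.18 to 1.70).

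**Figure D4:**
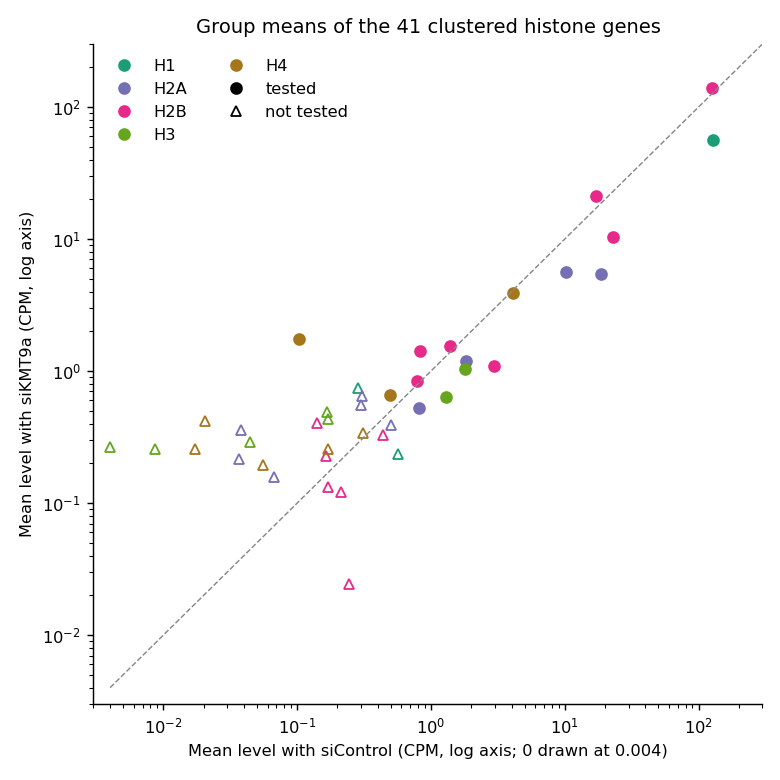
Mean level (CPM, n = 3) of each of the 41 clustered histone genes with siControl (horizontal) and siKMT9α#1 (vertical), both on log axes, with 0 drawn at 0.004. Filled circles are tested genes, open triangles are genes under the filter, and the dashed line marks equal levels. Most triangles lie above the line, while the abundant H1 and H2A genes lie below it. Many of these triangles reached the minimum of 10 counts only through the siKMT9α#1 samples.

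By position, the members fell into 6 stretches of the genome, with symbols less than 500000 bases apart joined. The counts by stretch are to be read against 37.1% higher and 38.5% lower of all genes tested. In the largest, on chromosome 6 from 25726291 to 26285727, 8 of 18 members were tested, with 2 higher and 3 lower. HIST1H4C, 1 of these 2, could enter the test only by being higher. In the small stretch from 27100095 to 27115346, 3 of 5 members were tested, HIST1H2BJ and HIST1H2BK were higher and none was lower. In the third stretch of chromosome 6, from 27775257 to 27861669, 3 of 9 were tested, HIST1H2BN and HIST1H3H were lower and none was higher. In HIST2, on chromosome 1 from 149754245 to 149859466, the tested HIST2H2BE fell. There, 3 of the 4 members under the filter were higher in every sample, against 17.4% of all genes under it. Of these 3, HIST2H3D and HIST2H2AB reached the minimum of 10 counts only through the siKMT9α#1 samples, so the count is a description. HIST2H4A and HIST2H4B, HIST2H3A and HIST2H3C, and HIST2H2AA3 and HIST2H2AA4 are listed at the same positions with the same counts and stayed below the minimum of 10.

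Many H2A and H2B genes are transcribed away from each other from a shared promoter region. There were 10 such pairs with starts 240 to 347 bases apart, and in 8 of them both genes were members. Both genes were tested in 2 pairs. The promoter of HIST1H2AC, from RefSeq on GRCh38.p14 at chr6:26123922-26124221 (plus strand, 250 bases before the start and 50 after), contains the region that it shares with HIST1H2BC, whose start lies 241 bases away. It is shown because the values of the partners differed, and capitals mark CCAAT, ATTTGCAT and TATAAA on either strand.
HIST1H2AC: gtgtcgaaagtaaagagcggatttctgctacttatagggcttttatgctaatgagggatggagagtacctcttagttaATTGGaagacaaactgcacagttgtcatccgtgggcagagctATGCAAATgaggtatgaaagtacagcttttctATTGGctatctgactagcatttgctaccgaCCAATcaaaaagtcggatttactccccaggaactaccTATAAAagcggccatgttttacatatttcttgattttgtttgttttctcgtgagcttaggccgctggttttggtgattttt

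The log2 ratio of HIST1H2AC to HIST1H2BC was 3.52, 3.83 and 3.92 with siControl and 1.80, 2.01 and 1.62 with siKMT9α#1. The mean ratio fell by 1.95 on the log2 scale, with no overlap (two-sided exact permutation test, p = 0.1, the smallest that 3 against 3 samples can give). For HIST1H2AG against HIST1H2BJ, whose starts are 242 bases apart, the log2 ratio was 0.60, 1.60 and 1.04 with siControl and -0.19, -0.63 and -0.07 with siKMT9α#1. It too was lower in each knock-down sample (two-sided exact permutation test, p = 0.1). In the HIST2 pair, HIST2H2BE fell while HIST2H2AC, 293 bases away, had 5, 5 and 6.5 counts with siControl and 9, 7 and 14 with siKMT9α#1.

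The letters of these promoters were searched on both strands in windows of 250 bases before to 50 after the start, for 60 of the 73 symbols with a RefSeq entry. ATTTGCAT, the octamer that POU2F1 recognises, was found in 73.3% of H2A and 75.0% of H2B symbols, in 8.3% of H3 symbols and in no H1 or H4 symbol, against 1.8% of 35116 RefSeq promoters. The H3 match was HIST1H3D alone, whose matches stood at the same positions as those of the overlapping H2A gene HIST1H2AD. CCAAT was found in 85.0% of the 60 (18.2% of H4 symbols) against 34.6% of all, and TATAAA in 66.7% against 11.5%. HIST1H2AC and HIST1H2BC share 1 copy of ATTTGCAT, and HIST2H2BE and HIST1H2BK, which went different ways, each hold it 46 bases before their start. A match of letters is a description and not a binding site.

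Transcript form was also compared with the response. Of the 4 tested members whose transcript runs past the stem-loop, HIST1H2BK and HIST1H2BD were higher, HIST2H2BE was lower and HIST2H2BF was not called. Of the 13 tested members that end at the stem-loop, 2 were higher, 6 were lower and 5 were not called. HIST1H4C, 1 of these 2, could enter the test only by being higher. Of all genes tested, 37.1% were higher and 38.5% lower, and the difference from these shares was not tested. Whether the RNA was selected by its poly(A) tail is not given in the sources used here, so levels of stem-loop and poly(A) forms in a gene cannot be told apart.

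The genes around histone synthesis were followed in lists by role. Of 17 genes for histone pre-mRNA 3′-end processing, all tested, 9 rose, 6 fell and 2 were not called, with a median log2 fold change of 0.20. SLBP rose in each knock-down sample, with 38.23 ± 2.44 CPM in siControl and 43.98 ± 2.17 CPM in siKMT9α#1 cells (SD, n = 3 each). Its log2 fold change, 0.20 with a standard error of 0.06, was 0.09 and not called when only the library size was used for scaling. NPAT, the coactivator of histone transcription that cyclin E and CDK2 phosphorylate, rose by 0.45, and CASP8AP2, its partner in the histone locus body, by 0.68. With length offsets the values were 0.37 for SLBP, 0.25 for NPAT and 0.45 for CASP8AP2. NCBP2, of the cap-binding complex, and ZNF473, the U7 snRNP-associated zinc finger protein, rose most, by 0.89 and 0.81. MIF4GD, which links SLBP to translation, and LSM10, a U7 snRNP protein, fell most, with log2 fold changes of -0.72 and -0.65, which were -0.47 and -0.36 with GC and length offsets.

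Of 9 genes for histone mRNA decay, 3 rose, 3 fell and 3 were not called, with a median of 0.00. ERI1, the exonuclease that trims the stem-loop, rose by 1.00 and UPF1, a helicase needed for the decay, by 0.83, while XRN1, the 5′ to 3′ exonuclease, had a log2 fold change of -0.38 (-0.73 with GC and length offsets). LSM1, of the ring that binds mRNA ends, had one of -0.13, which was -0.23 with library size alone and 0.08 with length offsets.

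Of 10 genes for histone transcription and its CDK2 input, 7 rose and none fell, with a median log2 fold change of 0.88. CDK2 rose by 2.18, from 10.8 ± 1.51 to 48.9 ± 2.62 CPM (SD, n = 3 each), and CCNA2, which encodes cyclin A2, by 1.57. POU2F1, the octamer-binding factor, rose by 0.99, while HINFP, the activator of H4 promoters, had a log2 fold change of 0.01 and was not called.

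Histone genes outside the clusters mostly encode variants whose mRNAs carry a poly(A) tail, though H2AFX also gives a stem-loop form and CENPA varies with the cell cycle. Of 16 such genes 12 were tested, of which 9 rose, 2 fell and 1 was not called, with a median log2 fold change of 0.45. H1F0, the linker histone of resting cells, rose by 0.62 and lay at 222.9 ± 9.49 and 342.9 ± 20.3 CPM (SD, n = 3 each), the reverse of HIST1H1C. H2AFZ (H2A.Z) and H2AFX (H2A.X) each rose by 0.51, H3F3A and H3F3B (H3.3) by 0.74 and 0.28, and CENPA, the centromeric H3, by 1.71. H2AFX was 0.78 with GC and length offsets, and H3F3B was 0.17 with library size alone. H2AFY2 and H2AFJ had log2 fold changes of -0.74 and -0.30 (-0.19 for H2AFJ without siKMT9α#1 replicate 3), and H1FX one of 0.04 that was not called, but was 0.33 and called with GC and length offsets.

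Of 25 histone chaperones and their partners, 15 rose, 5 fell and 5 were not called, with a median log2 fold change of 0.46. TONSL, which holds newly made histones at replication forks, and HJURP, the chaperone of CENPA, rose most, by 2.08 and 1.65. IPO4, which carries H3-H4 into the nucleus, and ASF1A, an H3-H4 chaperone, fell most, with log2 fold changes of -0.50 and -0.48. Each of these lists is to be read against the 37.1% higher and 38.5% lower of all genes tested.

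**Figure D5:**
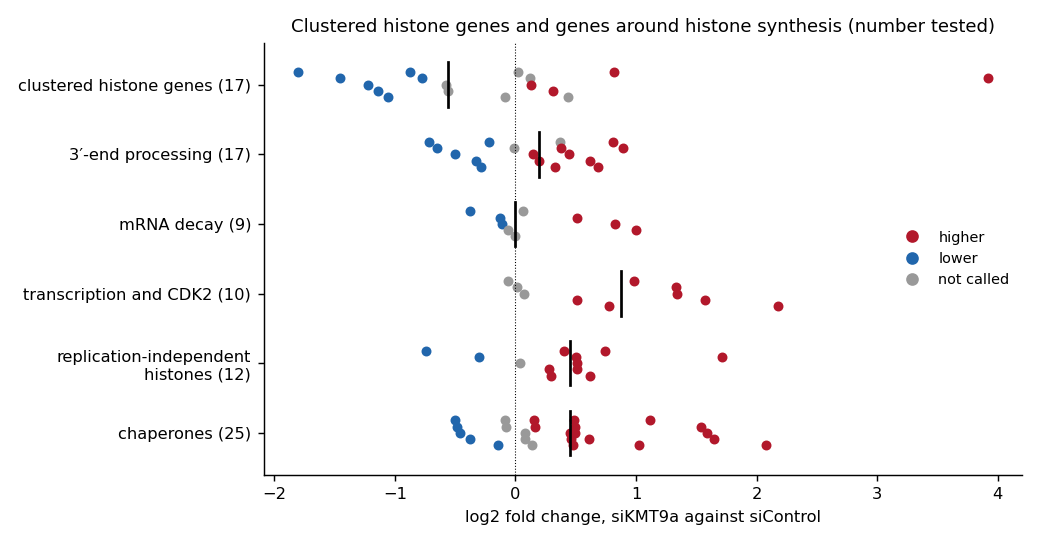
log2 fold changes, siKMT9α#1 against siControl, of the tested clustered histone genes and of 5 lists around histone synthesis, with the number tested after each name. Points are genes, coloured by call at an adjusted p under 0.05, and black lines are medians. The median of the 17 tested clustered histone genes lay at -0.56 (0.32 over all 41 members without a filter), and those of the lists lay between 0.00 and 0.88.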

How the data were processed

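RNA-Seq of A549 cells (3 siControl and 3 siKMT9α#1 samples) was analysed. Per the labels and the study's methods, the authors used STAR for alignment to hg19 and HOMER for counting over RefSeq transcripts, and they deposited estimated counts in steps of 0.5, not normalized. Strand use and the treatment of reads shared between copies are not given in the sources used here. The authors also deposited a fold change (a linear ratio), p-values, raw and adjusted, from their own edgeR comparison, none of which was used. Of 38767 rows, 1182 without a symbol and counts were left out.

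Each symbol was represented by the transcript with the largest summed count. Counts were rounded and tested with edgeR 4.0.16 in R 4.3.3 (TMM factors, filterByExpr, quasi-likelihood F test, Benjamini-Hochberg adjustment). Standard errors were the size of the log2 fold change over the square root of F. CPM were computed from the unrounded counts with TMM-scaled totals. Exact intervals were conditional binomial (Clopper-Pearson) on rounded group sums.

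Depth was 13740097 to 19832395.5 counts per sample. The members and lists were chosen with earlier results of these data known. Genes were named by rule: N6AMT1, the 5 most abundant tested members of each type, the 5 largest changes in each direction among called members with groups apart and a mean of at least 1 CPM, every tested member of HIST2, HIST3 and HIST4, SLBP, NPAT, CASP8AP2, H2AFX, H2AFZ, H3F3A, H3F3B, H1F0, H1FX and CENPA, and the 2 largest changes in each direction of each list. Genes under the filter, POU2F1, HINFP and the marker genes were named after their values were seen. Alternatives were DESeq2 1.42.0, RLE factors, library size alone, the likelihood-ratio test, other filters and transcripts, length offsets, a replicate block and each sample left out. GC and length offsets, with and without the block, were chosen after seeing the data. Stem-loops were read from GRCh37 and promoters from RefSeq (GRCh38.p14).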

Additional observations from a re-analysis of the deposited data

How the results depend on the processing

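The numbers of members higher and lower (4 and 7) stayed within 1.5 times under the settings tried, except as given next. Without a filter on low counts, 16 of 41 members were higher and 9 lower, against 34.6% and 34.9% of the 15900 genes of that fit. Of the 24 members that this setting added, 12 were higher and 2 lower. Of the 12 that lay higher in every siKMT9α#1 sample, 10 reached the minimum of 10 counts only through those samples. With at least 10 counts in every sample, 2 of 13 were higher. Leaving out each sample gave 4 to 6 higher and 5 to 8 lower.

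Medians of the log2 fold change by type depended on which genes were tested. Those of H2A, H3 and H4 were -0.73, -0.92 and 0.44, and without the filter they were 0.28, 1.56 and 1.15. H4 was -0.10 with at least 10 counts in every sample, where 1 gene was left. H1, a single gene at -1.22, was -0.99 with length offsets and -0.95 with GC and length offsets, and H2A was -0.48 with the latter. Leaving out each sample gave medians of -1.25 to 0.25 for H1, -0.85 to -0.33 for H2A, 0.01 to 0.22 for H2B, -0.99 to -0.69 for H3 and 0.09 to 0.70 for H4, as 18 to 21 members were then tested. HIST1H1C itself was -1.30 to -1.10 as samples were left out.

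Of the genes that changed sign, H1FX, HIST2H2BF and HIST1H4H were not called. LSM1 was called lower (adjusted p = 0.0289, edgeR quasi-likelihood F test, Benjamini-Hochberg). H1FX was -0.0699 with library size alone, and leaving out each sample gave -0.0212 to 0.106. HIST2H2BF was -0.08 with library size alone, and leaving out each sample gave -0.2118 to 0.3399. HIST1H4H went from -0.1504 to 0.0341 as samples were left out, above 0 without siKMT9α#1 replicate 3. LSM1 was 0.084 with length offsets, 0.0396 with GC and length offsets and 0.0397 with these and the block. The cause was not tested. Library size alone gave a median of -0.12 over all genes, against -0.01.

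Deviations from the group means were not shared by equally numbered samples (correlations -0.12, 0.04 and -0.11), so the numbers do not pair them. With the replicate number as a block, 3 members were higher and 7 lower, HIST1H2BK no longer being called. With the block and GC and length offsets, 4 were higher and 7 lower, and the H1 median was -0.95. Low counts limit the 24 members under the filter, whose single values rest on at most 14 counts a sample.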
